A study of Mus musculus with 4 samples.

Results

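The 10 genes described here encode receptors and effectors of Wnt signalling: the R-spondin receptors Lgr4 and Lgr5, the Wnt co-receptors Lrp5 and Lrp6, the receptor Fzd6, and the effectors or modulators Ctnnb1, Tcf7l1, Tcf7l2, Axin2 and Nlk. They were taken by gene symbol, with every probe set that carried one of these symbols, from 18193 genes on the array. The genes were selected on their ratio of signal after UVB to signal without irradiation on these same arrays, as well as by pathway, so differences after irradiation are given as descriptions with no test. The 10 genes were read by 24 probe sets, of which 18 averaged no less than a floor of 24.9 units over the arrays and 6 averaged less. This floor is the 50th percentile, over the whole table, of each probe set's average. Dimmer values were set to it before ratios were taken, and where this was done on 1 side the ratio is written as at least so many fold.

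The cells were primary keratinocytes, which form the epidermis, isolated from newborn C57BL/6 mice. There were 4 groups with 1 Affymetrix array each: p38a-KO cells 4 h after UVB at 75 mJ/cm2, p38a-KO cells without irradiation, WT cells 4 h after the same dose, and WT cells without irradiation. Mapk14 encodes p38a, a kinase of stress signalling. Which part of Mapk14 was deleted is not in the labels, nor what drives its deletion or whether animals were pooled. They name no mock-treated culture at 4 h, so the effect of irradiation cannot be told apart from that of time and handling. Because each group has 1 array, differences between arrays could not be checked against replicates, and precision is limited by the number of arrays. In bulk RNA, fewer cells of a type and less RNA per cell cannot be told apart.

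In canonical Wnt signalling, a Wnt ligand joins a Frizzled receptor and Lrp5 or Lrp6 at the cell surface, which stops a complex built on Axin proteins from marking beta-catenin for destruction. Beta-catenin then enters the nucleus and binds TCF/LEF factors at target genes. R-spondins, bound by Lgr receptors, keep Frizzled and Lrp proteins at the surface by removing the ubiquitin ligases Znrf3 and Rnf43. In skin the pathway is known for hair follicle formation and stem cell activity, and Tcf7l1 for repressing differentiation in epidermal progenitors.

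Promoters are shown for Lgr4 and Nlk, which were among the members with the lowest ratios after UVB, and for Axin2, a known direct target of beta-catenin and TCF. Each run holds 250 bases before and 50 after an annotated RefSeq start on GRCm38.p6, written 5′ to 3′ on the gene's strand. Lgr4 lies at chr2:109917397-109917696, plus strand, Nlk at chr11:78697376-78697675, minus strand and Axin2 at chr11:108920099-108920398, plus strand. Capitals mark the GC box GGGCGG on either strand.
Lgr4: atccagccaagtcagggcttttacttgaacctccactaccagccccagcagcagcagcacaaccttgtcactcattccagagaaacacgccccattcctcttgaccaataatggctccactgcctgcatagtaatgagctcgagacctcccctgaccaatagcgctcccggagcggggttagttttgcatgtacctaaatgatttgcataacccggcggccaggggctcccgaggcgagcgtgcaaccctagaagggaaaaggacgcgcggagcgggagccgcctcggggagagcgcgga
Nlk: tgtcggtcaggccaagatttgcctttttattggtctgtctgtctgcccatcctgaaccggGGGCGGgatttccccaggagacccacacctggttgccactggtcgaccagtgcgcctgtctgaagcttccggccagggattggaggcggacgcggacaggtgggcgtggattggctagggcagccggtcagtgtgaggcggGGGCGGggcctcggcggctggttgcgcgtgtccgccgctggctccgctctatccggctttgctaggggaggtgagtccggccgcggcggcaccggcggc
Axin2: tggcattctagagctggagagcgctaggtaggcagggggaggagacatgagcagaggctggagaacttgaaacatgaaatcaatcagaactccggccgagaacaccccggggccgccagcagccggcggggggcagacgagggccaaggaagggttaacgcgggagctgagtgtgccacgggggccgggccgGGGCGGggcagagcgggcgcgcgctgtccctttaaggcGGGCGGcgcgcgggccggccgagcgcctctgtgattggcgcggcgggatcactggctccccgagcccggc
The RefSeq promoter table held 8 promoters for 6 of the 10 genes. GC boxes were in 6 of these 8, in those of Nlk, Axin2, Ctnnb1, Tcf7l1 and 1 of 2 of Tcf7l2, against 35.7% of all 32851 promoters in the table. The 2 windows of Ctnnb1 overlap and share GC boxes, so the 6 are not all separate. Lgr4 had none in this window. The TCF/LEF core CTTTGA, on either strand, was in 0 of the 8, Axin2 included, against 16% of all promoters, and the AP-1 motif TGANTCA in 0 of the 8 against 7.81%. A match is only a description, and no match says only that these letters are not in these windows. The printed promoters were 58.3% GC for Lgr4, 67.7% for Nlk and 70.0% for Axin2, where the median over all promoters was 52.7%.

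Facts that touch every result come first. Mapk14, the targeted gene, read 647 units after UVB and 1449 units without irradiation in cells labelled KO, against 293 and 985 units in WT cells, by the brightest of its 6 probe sets. By that probe set it was not lower in the library labelled KO in either condition. A probe set outside the deleted part cannot check the genotype, so these cells are called KO-labelled. Signal after UVB was lower for most genes: the median log2 difference of the 11377 genes whose average reached the floor was -0.82 in KO-labelled and -0.70 in WT cells. Quantile normalization gave 0.05 in both genotypes, and median centring gave 0.28 and 0.32. Values below are as deposited unless stated, and each response is therefore also given relative to the median of all genes. The keratinocyte markers Krt5 and Krt14 were at 11820 units or more on all 4 arrays, and 11 of 12 listed keratinocyte markers matched a gene and were at or above the floor on each array.

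As deposited, signal of all 10 genes was lower 4 h after UVB in both genotypes, as was that of most of the 11377 genes. The depth of the difference varied widely among the 10. In KO-labelled cells 8 of 10 were at least 2-fold lower, where 39.3% of all 11377 genes were, and in WT cells 8 of 10, where 34.8% were. No member was at least 2-fold higher, as were 0.167% and 0.580% of all genes in KO-labelled and WT cells. The median log2 difference of the 10 was -1.92 in KO-labelled and -1.64 in WT cells. After quantile normalization 5 of 10 were at least 2-fold lower in each genotype, where 8.39% of 11413 genes were in KO-labelled and 9.69% in WT cells. After median centring 5 of 10 were as well, against 6.67% and 7.55% of 11424 genes. Lgr4, Lrp6, Tcf7l1, Axin2 and Nlk were these 5 under both scalings and in both genotypes. Since the members were chosen with this contrast known, nothing is read from these counts.

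**Figure D1:**
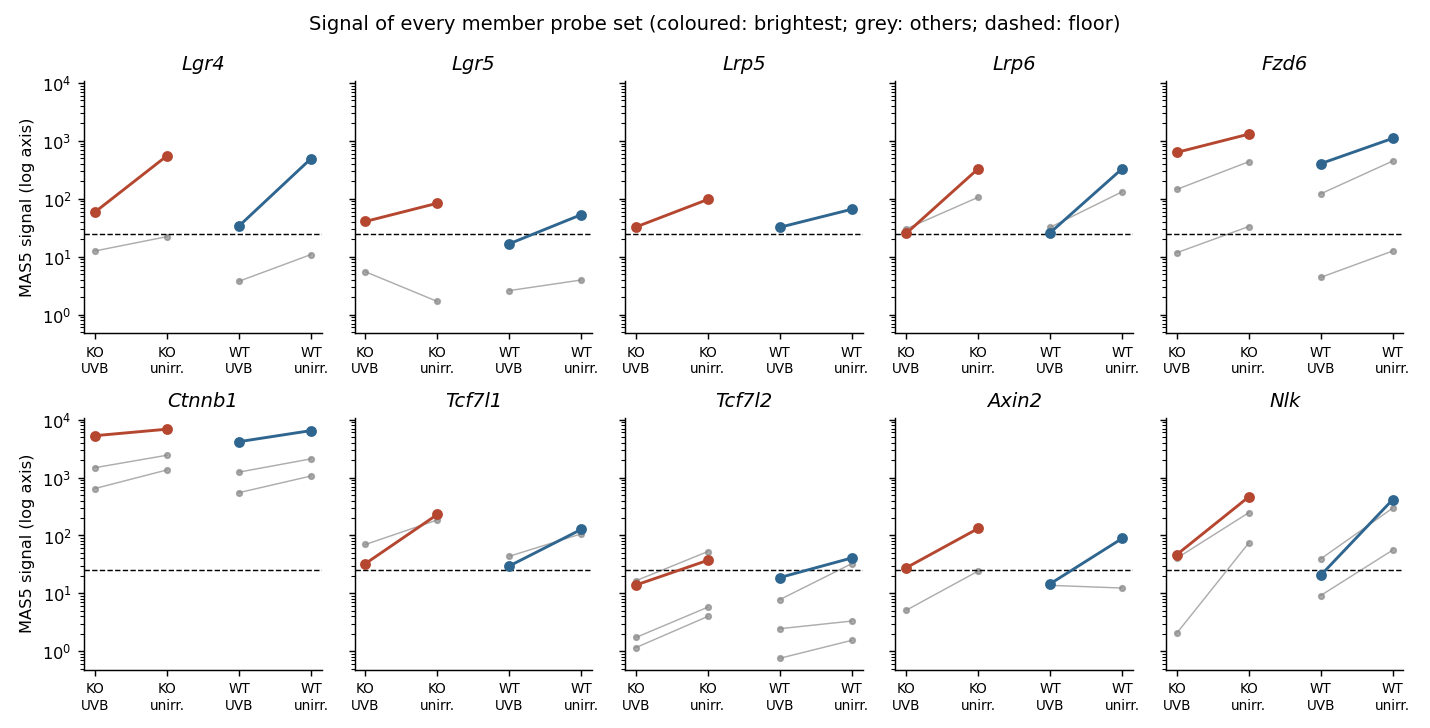
MAS5 signal on a log axis of all 24 probe sets of the 10 genes, 1 panel a gene, with KO-labelled arrays left of WT arrays and UVB left of unirradiated in each pair. Coloured points are the brightest probe set, grey points the others, and the dashed line is the floor of 24.9 units. Of the 18 probe sets whose average reached the floor, all 18 were lower after UVB in both genotypes. Signal of most genes on these arrays was lower after UVB as well.

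Among the R-spondin receptors, Lgr4 was well above the floor without irradiation and closer to it after UVB. Lgr5 was dimmer on average. Lgr4, which binds R-spondins and strengthens Wnt signals, read 59.1 units after UVB against 553 without irradiation in KO-labelled cells, and 33.8 against 493 units in WT cells. Both irradiated arrays read below both unirradiated ones, on arrays where signal of most genes was lower after UVB. The ratio was 9.36-fold lower in KO-labelled and 14.6-fold lower in WT cells. Relative to the median of all genes the log2 differences were -2.41 and -3.16, and Lgr4 was rank 52 and rank 7 from the lowest of 11377 genes. The other Lgr4 probe set was below the floor on all 4 arrays. Lgr5, a receptor best known as a marker of hair follicle and intestinal stem cells, read 40.6 against 83.8 units in KO-labelled cells and 16.7 against 53.2 units in WT cells. It was 2.07-fold lower in KO-labelled and at least 2.14-fold lower in WT cells, or -0.23 and at most -0.39 on the log2 scale relative to the median of all genes. With quantile normalization the log2 difference of Lgr5 in KO-labelled cells was 0.03, and with centring 0.08, so the direction depends on the scaling. Its second probe set stayed under 6 units on every array. Of 10 hair follicle markers listed for comparison, 6 were at or above the floor in mean signal. Summed signal of all 10 was 356 and 587 units in irradiated and unirradiated KO-labelled cells, against 322 and 548 units in the WT cells. Between 5 and 7 of these 10 markers were at or above the floor on each array, and the part of such cells in the Lgr5 signal was not tested.

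The 2 Wnt co-receptors differed in how much lower they were. Lrp6 read 25.3 units after UVB against 331 without irradiation in KO-labelled cells, and 26.0 against 331 units in WT cells. The irradiated values lie just above the floor, and how much of them is background is not given by the table. By this probe set Lrp6 was 13.1-fold lower in KO-labelled and 12.7-fold lower in WT cells, rank 13 and 14 from the lowest among 11377 genes and -2.89 and -2.96 on the log2 scale relative to their median. Its dimmer probe set read 30.3 against 106 units in KO-labelled and 32.2 against 132 units in WT cells, or 3.51-fold and 4.10-fold lower. Both Lrp6 probe sets thus had lower signal after UVB, with similar irradiated values and unlike unirradiated ones. Lrp5, the paralog of Lrp6, has 1 probe set, which read 32.5 against 97.4 units in KO-labelled cells and 32.2 against 65.9 units in WT cells. It was 2.99-fold lower in KO-labelled and 2.05-fold lower in WT cells, or -0.76 and -0.33 on the log2 scale relative to the median of all genes. With median centring the log2 difference of Lrp5 in WT cells was 0.04.

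Fzd6, a Frizzled receptor known in mice for orienting hairs through planar cell polarity, read 631 against 1305 units in KO-labelled cells and 404 against 1103 units in WT cells. The second probe set read 145 against 436 units in KO-labelled and 122 against 448 units in WT cells. The brighter one was 2.07-fold lower in KO-labelled and 2.73-fold lower in WT cells, and the second 3.01-fold and 3.68-fold lower. Relative to the median of all genes the log2 difference of the brighter one was -0.23 in KO-labelled and -0.75 in WT cells. With median centring the log2 difference of Fzd6 in KO-labelled cells was 0.08. The third probe set was at or above the floor on 1 array only, at 33.1 units in unirradiated KO-labelled cells.

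Among the effectors, Ctnnb1 had the ratio nearest to 1 of the 10 genes as deposited. Ctnnb1, which encodes beta-catenin, read 5285 against 6842 units in KO-labelled cells and 4165 against 6469.5 units in WT cells. It was 1.29-fold lower in KO-labelled and 1.55-fold lower in WT cells, or 0.45 and 0.07 on the log2 scale relative to the median of all genes. The 227 genes within 1.5-fold of its mean signal had medians of -0.19 and -0.16, so Ctnnb1 at -0.37 and -0.64 lay below genes of like signal. Its 2 dimmer probe sets had larger ratios, at 1.64-fold and 2.09-fold lower after UVB in KO-labelled and 1.69-fold and 1.94-fold lower in WT cells. Median centring gave Ctnnb1 log2 differences of 0.76 and 0.43, above 0 in both genotypes.

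Tcf7l1, a TCF factor that mostly represses its targets, read 32.7 against 231 units in KO-labelled cells and 29.8 against 128 units in WT cells. It was 7.07-fold lower in KO-labelled and 4.28-fold lower in WT cells, or -2.00 and -1.39 on the log2 scale relative to the median of all genes. The second probe set, which also read lower after UVB in both genotypes, gave smaller ratios. It read 69.8 against 186 units in KO-labelled and 43.8 against 107 units in WT cells, or 2.66-fold and 2.44-fold lower. Tcf7l2, a TCF factor that can activate or repress Wnt targets, was close to the floor on every array. It read 13.9 against 37.2 units in KO-labelled cells and 18.8 against 40.9 units in WT cells, at least 1.49-fold and at least 1.64-fold lower. Relative to the median of all genes these bounds are at most 0.24 and at most -0.01 on the log2 scale, so whether Tcf7l2 was below that median in KO-labelled cells cannot be read from it. A second probe set of Tcf7l2, a little dimmer, was at least 2.12-fold lower in KO-labelled and at least 1.31-fold lower in WT cells. The other 2 were below the floor on all 4 arrays.

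Axin2 and Nlk can both restrain the pathway. Axin2, a scaffold of the beta-catenin destruction complex and itself a target of the pathway, read 27.7 against 132 units in KO-labelled cells and 14.6 against 89.0 units in WT cells. It was 4.78-fold lower in KO-labelled and at least 3.57-fold lower in WT cells, or -1.44 and at most -1.13 on the log2 scale relative to the median of all genes. Its second probe set was below the floor on all 4 arrays. Nlk, a kinase that can phosphorylate TCF/LEF factors, read 46.6 against 462 units in KO-labelled cells and 20.5 against 415 units in WT cells. It was 9.93-fold lower in KO-labelled and at least 16.7-fold lower in WT cells, or -2.49 and at most -3.35 on the log2 scale relative to the median of all genes. A second Nlk probe set read 40.4 against 247 units in KO-labelled and 39.3 against 297 units in WT cells, or 6.11-fold and 7.55-fold lower. The third was at least 2.96-fold and at least 2.24-fold lower. All 3 Nlk probe sets therefore had lower signal after UVB in both genotypes, and they differed in the size of the ratio.

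**Figure D2:**
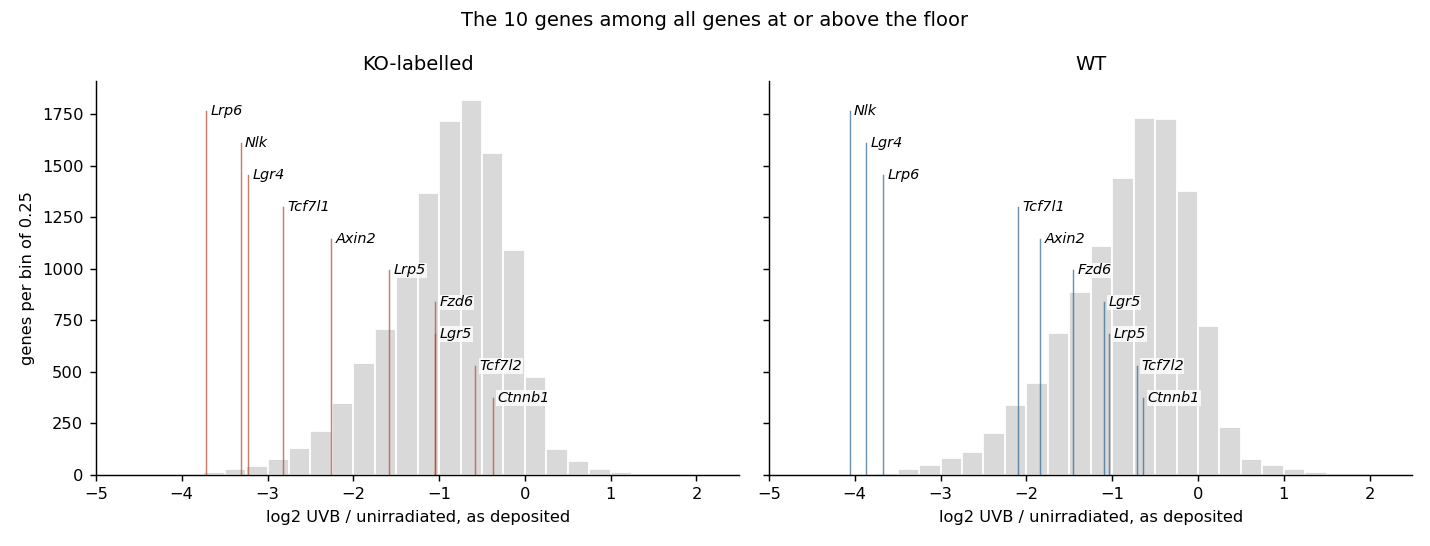
Histogram of the log2 ratio of UVB over unirradiated signal, as deposited, for the 11377 genes at or above the floor, in KO-labelled cells (left) and WT cells (right), with a line for each of the 10 genes. Values below the floor were raised to it, so the lines of Tcf7l2 in both panels and of Lgr5, Axin2 and Nlk in WT are bounds. Lrp6, Nlk and Lgr4 lie in the lower tail of both histograms, and Ctnnb1 has the ratio nearest to 0 of the 10.

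The order of the genes was similar but not the same in the 2 genotypes. In KO-labelled cells Lrp6, Nlk, Lgr4, Tcf7l1 and Axin2 had the lowest ratios, in that order, and in WT cells Nlk, Lgr4 and Lrp6 did. Tcf7l1 and Axin2 followed in WT cells with no settled order, since Axin2 there is a bound of at most -1.84 against -2.10 for Tcf7l1, and was -1.48 against -1.18 after quantile normalization. Genes within 1.5-fold of each gene's mean signal had medians between -1.09 and -0.19 in KO-labelled and between -1.02 and -0.16 in WT cells. Lgr4, Lrp6 and Nlk were each more than 2 log2 units below the genes of like signal in both genotypes, for which the medians were -0.97, -1.07 and -1.01 in KO-labelled and -0.90, -0.999 and -0.94 in WT cells. Lrp5 and Lgr5 lay closer to theirs, at -1.58 against -0.97 and -1.05 against -0.89 in KO-labelled cells, and at -1.03 against -0.84 and -1.10 against -0.74 in WT cells.

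**Figure D3:**
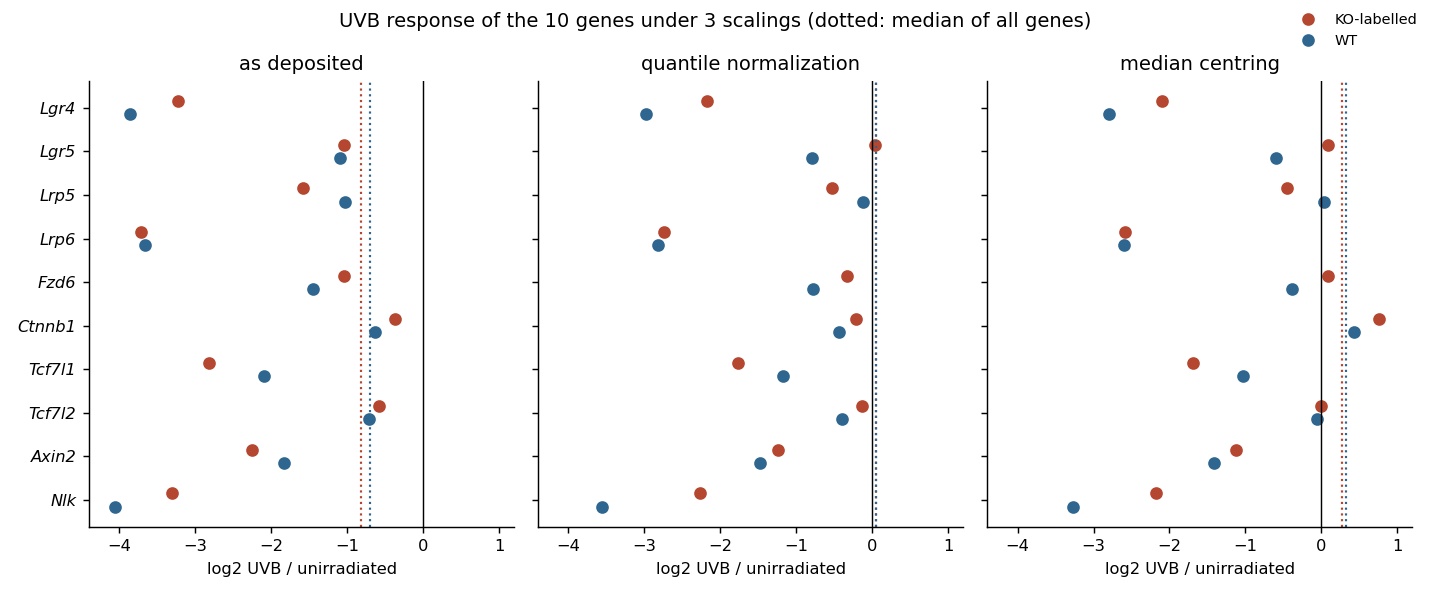
Log2 ratio of UVB over unirradiated signal for the 10 genes in KO-labelled and WT cells, as deposited, after quantile normalization and after median centring. Dotted lines are the medians of all genes under each scaling. Lgr4, Lrp6, Tcf7l1, Axin2 and Nlk lie at or below -1 in all 3 panels, whereas Lgr5, Lrp5, Fzd6 and Ctnnb1 cross 0 in at least 1 genotype after centring.

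Most of the 10 genes have a long annotated span. Length was not a criterion of choice, but it is not independent of the UVB ratio that was. On GRCm38.p6 all 10 had an annotated gene length, with a median of 111 kb and a range of 27.1 to 192 kb, where the median was 22.9 kb over the 11346 of 11377 genes (99.7%) with a length. With genes split by length into 10 bins of about 1135, Tcf7l2, Tcf7l1, Lgr5, Nlk and Lrp6 were in bin 10, the longest, and Lrp5 and Lgr4 in bin 9. Axin2 and Fzd6, at 33.0 and 32.0 kb, were in bin 7 and Ctnnb1, at 27.1 kb, in bin 6, near the median of all genes. Over all genes, the median response was -0.43 in KO-labelled and -0.29 in WT cells in bin 1, -1.11 and -1.05 in bin 9 and -0.98 and -0.89 in bin 10. Length and response had a Spearman correlation across these genes of -0.31 in KO-labelled and -0.33 in WT cells, and all genes share the same 2 arrays in each. Across the 10 genes the correlation was -0.14 and -0.13. Lgr4, at 96.6 kb, had -3.23 and -3.87 against medians of -1.08 and -1.02 for the 1565 genes within 1.5-fold of its length. Axin2, at 33.0 kb, had -2.26 and at most -1.84 against medians of -0.94 and -0.85 for 2783 genes of like length. Tcf7l2, the longest of the 10 at 192 kb, had one of the smallest ratios, with its irradiated values below the floor.

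**Figure D4:**
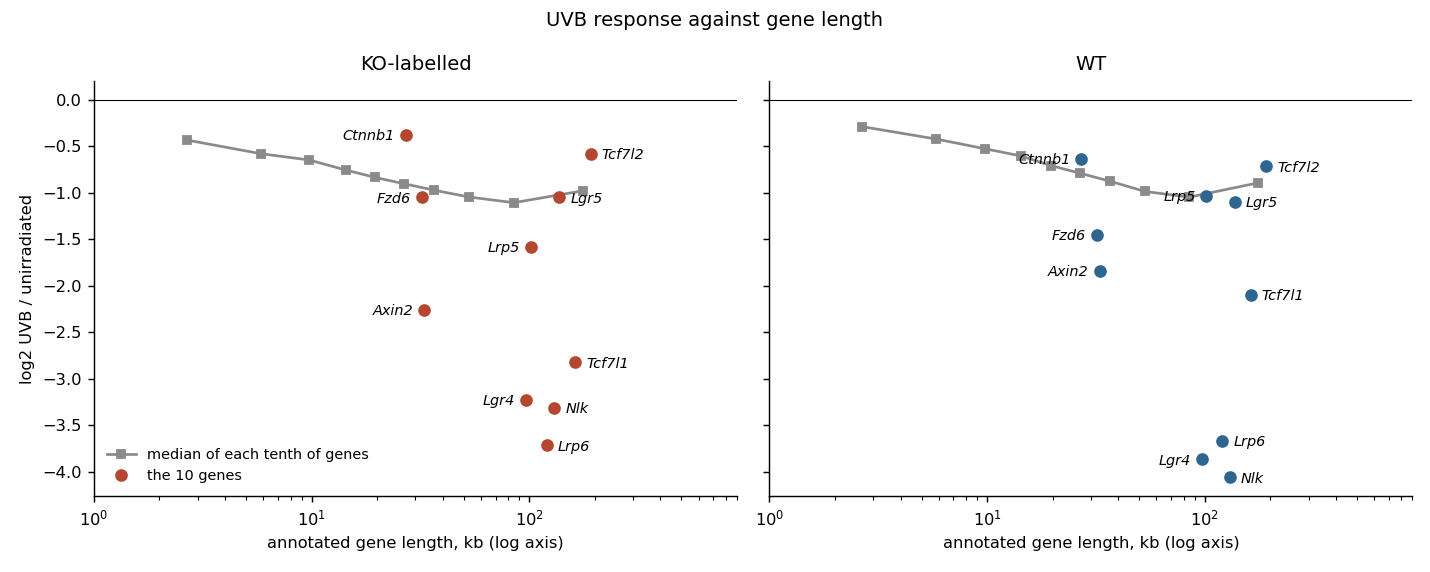
Log2 ratio of UVB over unirradiated signal against annotated gene length in kb on a log axis, in KO-labelled cells (left) and WT cells (right). Grey squares are medians over 10 bins of all genes by length, placed at each bin's median length, and coloured points are the 10 genes. Lgr4, Lrp6, Nlk, Tcf7l1 and Axin2 lie well below the grey line in both panels.

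Without irradiation, signal of the 10 genes was less than 2-fold apart between KO-labelled and WT cells. By the brightest probe set, 9 of the 10 had higher signal in KO-labelled cells, as did most of all genes, and Tcf7l2 had lower. The median log2 difference of the 10 was 0.20, where the median of all genes was 0.16. Quantile normalization left 8 of 10 higher and median centring 6 of 10, where the median of all genes was 0 under both. Thus 0 of 10 were 2-fold or more apart in either direction, where 1.63% of all genes were higher and 0.730% lower. Of the 18 probe sets whose average reached the floor, 14 were higher and 4 lower, and for 4 genes the probe sets disagreed in direction. The second probe set of Tcf7l2 was 1.62-fold higher in KO-labelled cells, and those of Lrp6, Nlk and Fzd6 were 1.24-fold, 1.2-fold and 1.03-fold lower. Tcf7l1 was 1.81-fold higher in KO-labelled cells, at 231 against 128 units, and its second probe set 1.74-fold higher, at 186 against 107 units. Lgr5 was 1.57-fold higher, Axin2 1.49-fold and Lrp5 1.48-fold. Fzd6 was 1.18-fold higher, and Lgr4, Nlk, Ctnnb1, Lrp6 and Tcf7l2 were within 1.12-fold.

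After UVB, signal of Nlk, Lgr4, Lgr5 and Fzd6 was more than 1.5-fold higher in KO-labelled than in WT cells by the brightest probe set. Nlk was at least 1.87-fold higher, at 46.6 against 20.5 units, but its second probe set was 1.03-fold higher, at 40.4 against 39.3 units. Lgr4 was 1.75-fold higher, at 59.1 against 33.8 units, and Lgr5 at least 1.63-fold, at 40.6 against 16.7 units. Fzd6 was 1.56-fold higher, at 631 against 404 units, and 1.19-fold by its second probe set. With dimmer values set to the floor, no member reached 2-fold in either direction, where 1.42% of all genes were higher and 1.47% lower. The ratios of Lgr5 and Nlk are lower bounds, so they do not show a difference under 2-fold. With quantile normalization, with median centring and with a lower floor of 9.38 units, 2 members, Lgr5 and Nlk, were at least 2-fold higher in each case. After quantile normalization 2.21% of all genes were, and after centring 1.79%. The share with the lower floor was not computed, so nothing is read from that count.

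The test over both conditions called none of the 10 genes for genotype. In an additive limma model with terms for irradiation and genotype, which leaves 1 residual degree of freedom, and with adjustment over all 11377 genes, 0 of 10 passed at 0.05, where 1.03% of all genes were higher and 0.659% lower in KO-labelled cells. The lowest adjusted p was 0.133, for Fzd6, with a log2 effect of 0.44 (SE 0.13) and higher signal in KO-labelled cells in both conditions. Before adjustment 4 of 10 had a p below 0.05, namely Fzd6, Lgr5, Lgr4 and Nlk, where 17.5% of all genes did. For Lgr4 the effect was 0.48 (SE 0.20, limma adjusted p = 0.258). It was 0.68 (SE 0.25, limma adjusted p = 0.210) for Lgr5 and 0.53 (SE 0.22, limma adjusted p = 0.261) for Nlk. The WT values of Lgr5 and Nlk after UVB, 16.7 and 20.5 units, were set to the floor. Their effects and SE therefore depend on it. With the lower floor Lgr5 had 0.97 (SE 0.35, limma adjusted p = 0.183) and Nlk 0.67 (SE 0.25, limma adjusted p = 0.184). The residual in each fit is the disagreement between the 2 conditions and not a spread between cultures.

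Fibroblast markers moved with the genotype beside these values. Of 10 such markers, all at or above the floor in mean signal, 9 were higher in unirradiated KO-labelled cells, 4 of them at least 2-fold, and 10 were higher after UVB. Of all genes 1.63% were at least 2-fold higher without irradiation. The median log2 difference of all genes between the genotypes was 0.16 without irradiation and 0.05 after UVB. Summed signal of the fibroblast markers was 5143 units in irradiated and 7536 units in unirradiated KO-labelled cells, against 3049 and 3868 units in the WT cells. Melanocyte markers summed to 5620.0 and 8582 units in KO-labelled cells, against 4823 and 6148 units in WT cells. Without irradiation 7 of 7 were higher in KO-labelled cells, and after UVB 6 of 7. Of 6 leukocyte and Langerhans markers and 4 endothelial markers, at most 1 each reached the floor on any array, and Ptprc, Cd207 and Pecam1 were below it on all 4. The part of fibroblasts or melanocytes in the genotype values of the 10 genes was not tested.

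With dimmer values set to the floor, the difference between the 2 UVB responses was below 2-fold for every member. By the brightest probe set, the response of Nlk was at least 0.75 log2 units higher (less low) in KO-labelled than in WT cells. That of Lgr4 was 0.64 log2 units higher. The same difference was -0.72 for Tcf7l1 and -0.55 for Lrp5. By the second probe set the genotypes lay closer together. Tcf7l1 had -1.41 in KO-labelled and -1.29 in WT cells by it, and Nlk had -2.61 and -2.92. For Axin2 it was -0.42 with the WT value after UVB set to the floor, and it turned to 0.24 with quantile normalization, 0.29 with centring and 0.35 with the lower floor, so it has no settled direction. Over all genes 1.34% differed by 2-fold or more upward and 2.94% downward. Nlk passed 2-fold with quantile normalization, at 1.29, where 2.41% of genes did, and with centring, at 1.09, where 1.98% did. The WT value of Nlk after UVB was also below the floor, so 0.75 is a lower bound, and the lower floor gave 1.03. No test of this difference was possible, since a model with an interaction has no residual degree of freedom.

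Most other Wnt pathway genes also had lower signal after UVB as deposited. Besides the 10 genes, 8 lists held 108 genes, of which 106 were matched and 77 were at or above the floor in mean signal. Of the 77, 42 were at least 2-fold lower in KO-labelled and 39 in WT cells, where 39.3% and 34.8% of all genes were. In either genotype 0 of the 77 were at least 2-fold higher, where 0.167% and 0.58% of all genes were. The median log2 difference of the 77 was -1.23 in KO-labelled and -1.02 in WT cells, where the medians of all genes were -0.82 and -0.70. In limma's additive fit 64 of 77 fell and 0 rose, where 69.5% of all genes fell and 0.703% rose. After quantile normalization, 31 of 74 fell and 7 rose, where 20.6% of all genes fell and 20.5% rose. After centring 25 of 74 fell and 16 rose, against 15.2% and 36.5% of all genes. The counts by list that follow are as deposited, and each is to be set against the 69.5% and 0.703% of all genes. The lists were chosen with earlier results of these data known, so nothing is read from their UVB counts.

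Wnt ligands and their secretion factors had 9 of 11 tested members falling in limma's fit and 0 rising. Wnt7a, a ligand made by epidermal cells, read 31.3 against 246 units in KO-labelled cells and 78.3 against 347 units in WT cells, 7.85-fold and 4.43-fold lower. Wnt10a, a ligand needed for hair and tooth formation, read 276 against 721 units in KO-labelled and 289 against 724 units in WT cells, 2.61-fold and 2.51-fold lower. Wnt9a was at least 4.25-fold and at least 3.78-fold lower. After UVB Wnt7a was 2.5-fold lower in KO-labelled than in WT cells.

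Among genes of R-spondins and receptor turnover, only 3 of 7 were at or above the floor in mean signal, and none of the 4 R-spondin genes was. Znrf3, a ligase that removes Frizzled and Lrp proteins from the surface and is itself a Wnt target, read 21.3 against 205 units in KO-labelled cells and 11.5 against 170.5 units in WT cells. It was at least 8.22-fold and at least 6.84-fold lower, and fell in limma's fit together with its paralog Rnf43. Rnf43 was at least 2.16-fold and at least 1.74-fold lower. Lgr6, the third Lgr receptor of this group, was 1.56-fold and at least 1.35-fold lower and did not pass.

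Of 11 tested Frizzled and other receptor genes, 9 fell and 0 rose in limma's fit. Fzd2 read 96.8 against 417 units in KO-labelled cells and 47.1 against 424 units in WT cells, 4.31-fold and 9.0-fold lower, and was 2.06-fold higher in KO-labelled than in WT cells after UVB. Fzd7 was 7.92-fold lower in KO-labelled and 4.24-fold lower in WT cells, and Ror1, a receptor of noncanonical Wnt signals, 4.36-fold and 4.59-fold lower. Among secreted and surface inhibitors 5 of 8 fell and 0 rose. Sostdc1, a secreted antagonist, was 4.23-fold and 5.66-fold lower, Apcdd1, a membrane inhibitor, 2.54-fold and 2.79-fold lower, and Dkk3 2.34-fold and 2.03-fold lower.

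In the Dishevelled and destruction complex list 18 of 18 tested genes fell in limma's fit, where 69.5% of all genes did. The median log2 difference of the list was -1.53 in KO-labelled and -1.58 in WT cells. Axin1, the main scaffold of the complex, read 30.0 against 300.2 units in KO-labelled cells and 36.1 against 248 units in WT cells, 10.02-fold and 6.87-fold lower. Csnk1g1, a casein kinase, was 5.99-fold and 7.92-fold lower, and Fbxw11, which recognises marked beta-catenin for destruction, 4.81-fold and 6.83-fold lower. With quantile normalization 5 of these 18 in KO-labelled and 6 in WT cells were at least 2-fold lower, where 8.39% and 9.69% of all genes were.

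Nuclear partners of beta-catenin had 12 of 13 falling and 0 rising. The corepressor gene Tle4 was at least 4.44-fold and at least 3.44-fold lower, and the coactivator genes Ep300 and Crebbp 4.66-fold and 3.56-fold lower in KO-labelled and 5.10-fold and 4.66-fold lower in WT cells. Of listed Wnt target genes 6 of 11 fell and 0 rose, with a median of -0.64 in KO-labelled and -0.73 in WT cells, close to the medians of all genes. Myc read 281 against 1348 units in KO-labelled cells and 254 against 1504 units in WT cells, 4.80-fold and 5.93-fold lower. Znrf3 and Rnf43 were the other named targets of that list, with the values above. Of planar cell polarity genes 6 of 7 fell and 0 rose. Daam1 was 3.69-fold and 4.83-fold lower, Vangl1 3.88-fold and 2.89-fold lower, and Celsr1 2.60-fold and 1.92-fold lower.

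**Figure D5:**
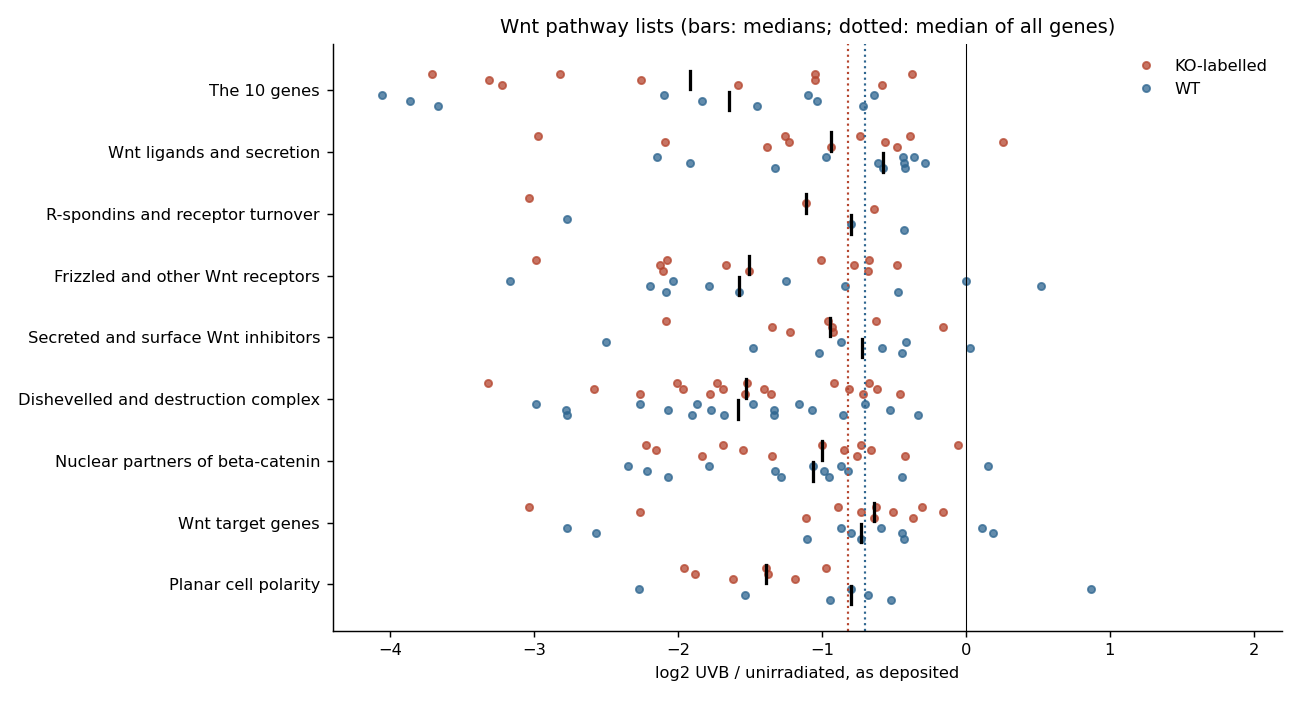
Log2 ratio of UVB over unirradiated signal, as deposited, for each gene at or above the floor in the 10 genes and in 8 lists of other Wnt pathway genes, with KO-labelled points above WT points. Black bars are list medians and dotted lines the medians of all genes. The Frizzled and the destruction complex lists have medians near -1.5 in both genotypes, and the target gene list lies close to the dotted lines.

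For genotype, 1 of the 77 other pathway genes was higher and 1 lower in KO-labelled cells in limma's fit, where 1.03% of all genes were higher and 0.659% lower, so the count is near the background. Dkk3 was higher in KO-labelled cells, at 415 against 206 units after UVB and 969 against 418 units without irradiation, with a log2 effect of 1.11 (SE 0.13, limma adjusted p = 0.00497). Porcn, which encodes the enzyme that acylates Wnt ligands and was named after its values were seen, was lower. It read 201 against 386 units after UVB and 335 against 588 units without irradiation, with a log2 effect of -0.87 (SE 0.14, limma adjusted p = 0.0162). Fibroblast markers were higher in KO-labelled cells as given above, and their part in the Dkk3 value was not tested. Neither Dkk3 nor Porcn passed without the intensity trend, with genotype alone in the model, or with probe sets of a gene averaged.

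The genes with the pattern most like each member were found over the 4 arrays by the Euclidean distance between log2 signals centred on each gene's mean, among 9228 genes at or above the floor on all 4. Pum2 and Trp63 were closest to Lgr4, at distances of 0.15 and 0.31 log2 units, and Rnf145 and Tsc22d2 to Lrp6, at 0.11 and 0.18. Wdr3 and Cdkn2d were closest to Lrp5, Tnk2 and Top2b to Fzd6, Blmh and Uap1l1 to Ctnnb1, and Fam83f and Lpcat1 to Tcf7l1, at distances from 0.02 to 0.18. Trp63, which encodes the p63 factor of basal keratinocytes, read 236 against 1931 units in KO-labelled cells and 151 against 1676 units in WT cells. Lgr5, Tcf7l2, Axin2 and Nlk were below the floor on at least 1 array and were not compared.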

How the data were processed

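RNA from 4 cultures was measured on 1 Affymetrix array each. The deposited value of each probe set is a linear signal intensity that the authors computed with MAS5, per the submitters' processing notes. The version of MAS5, with its scaling target, is not given in the sources used here. Median signal was 18.7 units in irradiated KO-labelled, 34.5 in unirradiated KO-labelled, 18.7 in irradiated WT and 30.3 in unirradiated WT cells.

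Probe sets were named from the platform annotation (34958 of 45101 with 1 symbol), and lengths and promoters came from RefSeq on GRCm38.p6; the files name no build. A gene with several probe sets was read by the brightest on average, and values under the floor were set to it. Values were compared as log2 differences, read at 2-fold. The additive fit used limma 3.58.1 (R 4.3.3) with an intensity trend and Benjamini-Hochberg adjustment at 0.05, and was tested on simulated data. Quantile normalization and median centring were alternatives, with other floors, folds, probe set rules and limma settings.

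The 10 genes and the lists were chosen with earlier results of these data known. Named genes are the 10, Mapk14, the 3 largest mean responses of each wider list, and the 2 nearest patterns of each gene measured on all 4 arrays; single markers of cell types and any other names outside this rule were chosen after their values were seen.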

Additional observations from a re-analysis of the deposited data

Results flagged for a closer look

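Sox10, a melanocyte marker read beside the 10 genes, had UVB responses of opposite sign in the 2 genotypes, which is why it is listed here. It read 50.3 units after UVB against 112.6 without irradiation in KO-labelled cells, and 62.4 against 59.7 units in WT cells. The log2 differences were -1.16 and 0.06, and the response in KO-labelled cells minus that in WT cells was -1.23. This difference was not tested, since each group has 1 array.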

How the results depend on the processing

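No paired analysis was possible because each group has 1 array. In KO-labelled and in WT cells alike, 8 of 10 genes were at least 2-fold lower after UVB as deposited, and 5 of 10 after quantile normalization, after median centring and at a threshold of 3-fold. With the floor at the 75th percentile, 129.1 units, only 5 genes could be read, of which 4 were lower. The UVB log2 difference changed sign for Lgr5 in KO-labelled cells, at 0.031 after quantile normalization and 0.084 after centring, and after centring for Fzd6 in KO-labelled cells, at 0.084, and for Lrp5 in WT cells, at 0.036. Ctnnb1, which was under 2-fold lower as deposited, had 0.76 in KO-labelled and 0.43 in WT cells after centring. The cause was not tested. Of the 10, 0 were at least 2-fold higher in KO-labelled than in WT cells as deposited with the floor applied. At 1.5-fold 2 were higher without irradiation and 4 after UVB. After UVB 2 were at least 2-fold higher with quantile normalization, centring or the floor at the 25th percentile. Of all genes 2.21% were with quantile normalization and 1.79% with centring. For the difference of the UVB responses the count upward was 0 as deposited with the floor applied, and 2 at 1.5-fold. It was 1 under each of the 3 settings named above, where 2.41% of all genes passed with quantile normalization and 1.98% with centring. Downward it was 1 at 1.5-fold. Shares of all genes were not computed at 1.5-fold, at 3-fold or, for fold counts, at the other floors. Nothing is read from those fold counts of the 10. In limma's fit 0 of the genes tested passed for genotype under every alternative run, with adjusted p between 0.0734 and 0.99996 and 0 to 6 genes at an unadjusted p below 0.05, where 0.422% to 20.5% of all genes were (15.5% where 6 of the 10 were). Of other Wnt genes 64 of 77 fell and 0 rose, where 69.5% and 0.703% of all genes did. Quantile normalization gave 31 and 7 of 74, against 20.6% and 20.5% of all genes, and centring 25 and 16, against 15.2% and 36.5%. For genotype over all genes, 117 were higher and 75 lower in limma's fit, and 0 and 0 without the trend, with genotype alone as factor or with the mean over probe sets, where 1526, 48 and 1714 had an unadjusted p below 0.05. Genes near the floor, Tcf7l2, Lgr5 and Lrp5 among them, have signal too close to background for firm ratios. Irradiated values of Lrp6, Tcf7l1 and Axin2, and of Nlk in WT cells, were also near or below the floor. The size of their ratios is therefore not firm either. With the floor at 129.1 units Lrp6 had a bound of at most -1.36 in both genotypes, against -3.71 in KO-labelled and -3.67 in WT cells as deposited.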
